A study of Mus musculus with 2 samples.

Results

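The 34 genes described here carry glucose from uptake to pyruvate and lactate: glucose carriers, glycolytic enzymes, lactate dehydrogenase subunits, lactate carriers, pyruvate dehydrogenase with its kinases, and the hypoxia factor gene Hif1a. They were taken from a fixed list of symbols after Entrez identifiers in the files had been matched to mouse symbols, and the rule itself uses no measured value, although the list was drawn up with earlier results of these data known. All 34 of 34 were listed in both libraries, out of 17216 genes listed in at least 1 of them. The mean of both libraries reached 1 FPKM (fragments normalized to transcript length and to sequencing depth, so that levels of different genes can be compared per length) in 33 of the 34, and the exception was Pdk4.

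A BGISEQ-500 instrument read RNA from cells of C57BL/6 mice labelled as haematopoietic stem cells, with 1 library of genotype Ccp3-/- and 1 library of wild type littermates. By the labels, cells were sorted by flow cytometry into an LT-HSC gate, for long-term haematopoietic stem cells, negative for lineage markers and CD48 and positive for Sca-1, c-Kit and CD150. The sources used here give neither the age and sex of the mice, nor how many were pooled, nor which stretch of the gene was deleted. With 1 library per genotype there was no replicate spread and no test between genotypes, so each value compares these 2 libraries. Low values implied depths near 15.3 M reads (wild type) and 14.2 M reads (knockout-labelled).

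The labels were checked against marker transcripts. Agbl3, which encodes CCP3, was listed at 1.11 FPKM (wild type) and 0.66 FPKM (Ccp3-/-), a ratio of 0.595 with a 95% counting interval of 0.288 to 1.19. The genotype label was thus not checked by this gene, and that library is called the knockout-labelled library below. Wherever a pair of values is given, the wild type library comes first and the knockout-labelled one second. Of the gate's own genes, Kit was listed at 59.7 and 56.5 FPKM and Ly6a, which encodes Sca-1, at 49.1 and 28.4 FPKM. Slamf1, which encodes CD150, stood at 2.14 and 3.40 FPKM, while Cd48, whose protein the gate excluded, stood at 136 and 114 FPKM. Mpo, a granule gene of myeloid progenitors and neutrophils, ranked 59th and 11th among all listed genes. Cd48 RNA was thus abundant in cells gated as negative for its protein, and these transcripts do not establish that the cells were LT-HSCs.

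Glycolysis splits glucose into pyruvate in the cytosol and yields ATP without oxygen. Pyruvate is then either reduced to lactate by lactate dehydrogenase and exported through monocarboxylate carriers, or oxidised in mitochondria after pyruvate dehydrogenase has turned it into acetyl-CoA. Pyruvate dehydrogenase kinases switch off that oxidation. LT-HSCs are known for relying on glycolysis in the hypoxic bone marrow niche, where HIF-1 raises transcription of glycolytic enzymes and of these kinases.

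The abundant glycolytic enzymes were at similar levels in the 2 libraries, whereas both lactate carriers, 1 hexokinase and Hif1a were higher, and minor isoforms of aldolase and lactate dehydrogenase and 1 of the main pyruvate dehydrogenase kinases were lower in the knockout-labelled library. Genes whose mean reached 1 FPKM were counted when they differed by 1.5-fold or more on the log2(FPKM + 1) scale. By that rule 4 of 33 members (12.1%) were higher, against 6.11% of 11985 genes, namely Slc16a1, Slc16a3, Hif1a and Hk2. Another 3 of 33 (9.09%) were lower, namely Aldoc, Pdk2 and Ldhb, against 6.13% of all genes. The remaining 26 lay within 1.5-fold. Slc16a1 and Slc16a3 were also at least 2-fold higher (6.06% of 33 members), against 1.21% of all genes. The median difference over the 33 members was 0.09, beside 0.01 over all genes. In sorted bulk RNA, fewer cells of a type and less RNA per cell cannot be told apart.

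With both libraries scaled to the same FPKM sum, the members past 1.5-fold were 6 higher (Pfkfb3 and Pfkp in addition) and 1 lower (Aldoc), and the median over all genes moved to 0.18. Among all genes past 1.5-fold, the share that was higher then went from 49.9% to 78.8%, and with equal upper quartiles it was 39.1%. With a pseudocount of 5 FPKM, Ldhb was the single lower member. Reads per gene estimated from the depth gave each ratio of FPKM values an exact conditional 95% interval, which covers counting error only and takes no account of differences between animals. The interval lay above 1 for 19 of 33 members (57.6%), against 31.1% of all genes, and below 1 for 7 (21.2%), against 27.0%. Abundant genes have narrow intervals by construction, and the members had a median of 1055 estimated reads in the wild type library, against 501 over all genes.

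**Figure D1:**
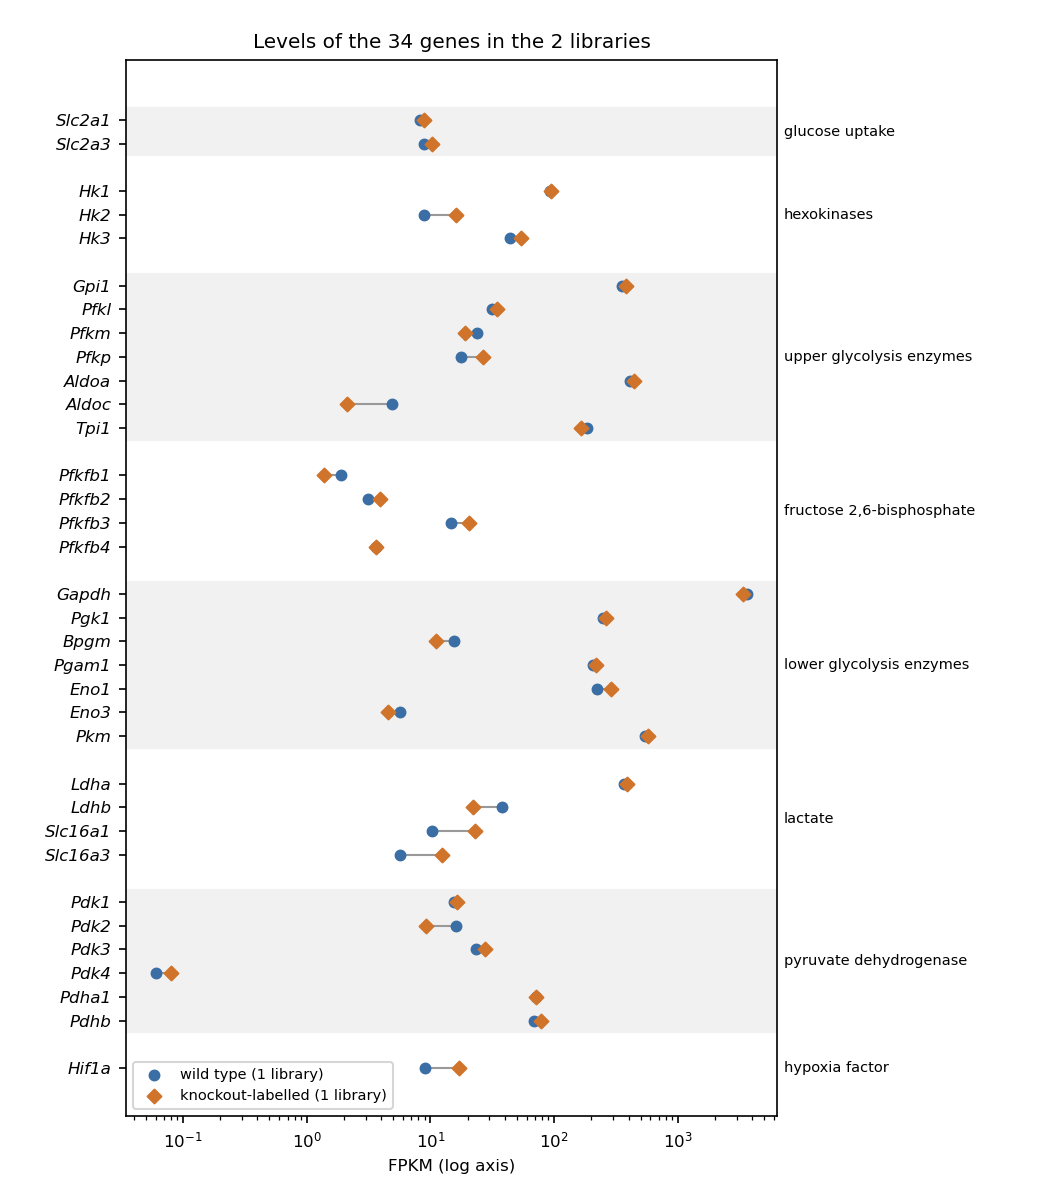
FPKM (log axis) of the 34 genes in pathway order in the wild type library (circles) and the knockout-labelled library (diamonds), 1 library each. Most pairs of points overlap from Gapdh at 3659 FPKM down to Pfkfb4 at 3.6 FPKM, and the pairs that lie furthest apart are Aldoc, Slc16a1, Slc16a3, Hif1a, Hk2, Pdk2 and Ldhb.

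Glucose enters blood cells through the facilitative carriers GLUT1 and GLUT3. Slc2a1, which encodes GLUT1, was listed at 8.24 and 8.82 FPKM, a ratio of 1.07 (95% counting interval 0.912 to 1.25). Slc2a3, which encodes GLUT3, stood at 8.88 and 10.3 FPKM, a ratio of 1.16 (1.03 to 1.31). Neither carrier differed by 1.5-fold, and their shares of the summed carrier FPKM differed by 2.05 percentage points between the libraries.

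Hexokinases trap glucose as glucose 6-phosphate, and 3 of their genes were measured. Hk1, the broadly used isoform, was the most abundant, at 92.5 and 95.3 FPKM, a ratio of 1.03 (0.994 to 1.07). Hk3, an isoform found mainly in myeloid cells, stood at 44.4 and 54.1 FPKM, a ratio of 1.22 (1.15 to 1.29). Hk2, the inducible isoform, was listed at 8.81 and 16.2 FPKM, a ratio of 1.84 (1.68 to 2.02). Hk2 thus differed most among the hexokinases, although it remained the least abundant of them in both libraries. Its share of the summed hexokinase FPKM was 6.05% and 9.80%, while the share of Hk1 was 63.5% and 57.5%. Counted in estimated reads, the odds that a hexokinase read came from Hk2 were 1.70 times higher in the knockout-labelled library (1.54 to 1.87).

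The upper steps turn glucose 6-phosphate into a pair of triose phosphates, with phosphofructokinase as the committed step. Gpi1, the isomerase gene, was listed at 355 and 384 FPKM, and Tpi1, which interconverts the trioses, at 186 and 165 FPKM. Aldoa, the main aldolase gene, stood at 411 and 446 FPKM. These enzyme genes had ratios between 0.890 and 1.08. Aldoc, the aldolase isoform typical of brain, had 2.32 times the level in the wild type library, at 4.87 and 2.10 FPKM, with a knockout to wild type ratio of 0.431 (0.328 to 0.562). Aldoc made up 1.17% and 0.469% of aldolase FPKM, so the aldolase sum, at 416 and 448 FPKM, followed Aldoa.

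Of the 3 phosphofructokinase genes, Pfkm was lower and Pfkl and Pfkp were higher, with a sum of 73.0 and 80.2 FPKM, a ratio of 1.10. Pfkl, the liver-type subunit, was the most abundant at 31.7 and 34.7 FPKM, a ratio of 1.09 (1.02 to 1.17). Pfkm, the muscle-type subunit, stood at 23.7 and 19.1 FPKM, a ratio of 0.805 (0.733 to 0.885). Pfkp, the platelet-type subunit, stood at 17.6 and 26.4 FPKM, with a 95% counting interval of 1.39 to 1.62 for the ratio and a log2(FPKM + 1) difference of 0.56, just short of the 1.5-fold rule. The order of Pfkm and Pfkp was therefore exchanged, with shares of 32.4% and 24.1% of phosphofructokinase FPKM in the wild type library and 23.8% and 32.98% in the knockout-labelled library. Exons of Pfkp overlap by up to 748 bases those of Pitrm1 on the opposite strand. Pitrm1 was listed at 38.0 and 39.7 FPKM, and no source used here states strand-specific counting, so reads of this pair may be mixed.

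The PFKFB enzymes make and break fructose 2,6-bisphosphate, the strongest activator of phosphofructokinase. Pfkfb3, the isoform with the highest kinase activity, was the most abundant of the 4, at 14.7 and 20.6 FPKM, a ratio of 1.40 (1.29 to 1.52). Pfkfb2 stood at 3.15 and 3.94 FPKM, Pfkfb4 at 3.64 and 3.62 FPKM, and Pfkfb1, the isoform typical of liver and muscle, at 1.90 and 1.39 FPKM. The intervals of Pfkfb4 (0.803 to 1.23) and Pfkfb1 (0.458 to 1.15) included 1, the latter from about 50 and 34 reads. Pfkfb3 made up 62.8% and 69.7% of the family's FPKM.

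The lower steps recover ATP and NADH from the trioses, and they include the most abundant members. Gapdh, the dehydrogenase gene often used as a reference, was listed at 3659 and 3368 FPKM, a ratio of 0.921 (0.911 to 0.930). It ranked 16th and 7th among all listed genes and alone exceeded the sum of the other 33 members, which was 3084 and 3320 FPKM. Pgk1, the first ATP-yielding kinase of the pathway, stood at 248 and 262 FPKM, and Pgam1, the mutase gene, at 207 and 220.1 FPKM. Pkm, the pyruvate kinase gene, stood at 540.3 and 576 FPKM. The ratios of these 3 genes lay between 1.05 and 1.07.

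Eno1, the main enolase gene, differed most among the abundant enzymes, at 224 and 286 FPKM, a ratio of 1.28 (1.24 to 1.32). Eno3, the muscle enolase, stood at 5.65 and 4.57 FPKM with an interval of 0.613 to 1.06. Bpgm makes 2,3-bisphosphoglycerate, the regulator of haemoglobin in red cells, and was listed at 15.5 and 11.0 FPKM, a ratio of 0.712 (0.616 to 0.822). Of 15 erythroid markers, the 4 globin genes summed to 1363 and 307 FPKM and the other 11 to 334 and 310.3 FPKM, and their part in the Bpgm difference was not tested. No gene of the lower steps passed the 1.5-fold rule. Pkm is spliced into an M1 and an M2 form, and the files hold a single value and a length of 2432 bases for its 2 transcripts in both libraries, so the forms were not separated. Gapdh, Pgk1, Ldha and other abundant members have processed pseudogenes in the mouse genome, and how reads shared with such copies were assigned is stated in no source used here.

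**Figure D2:**
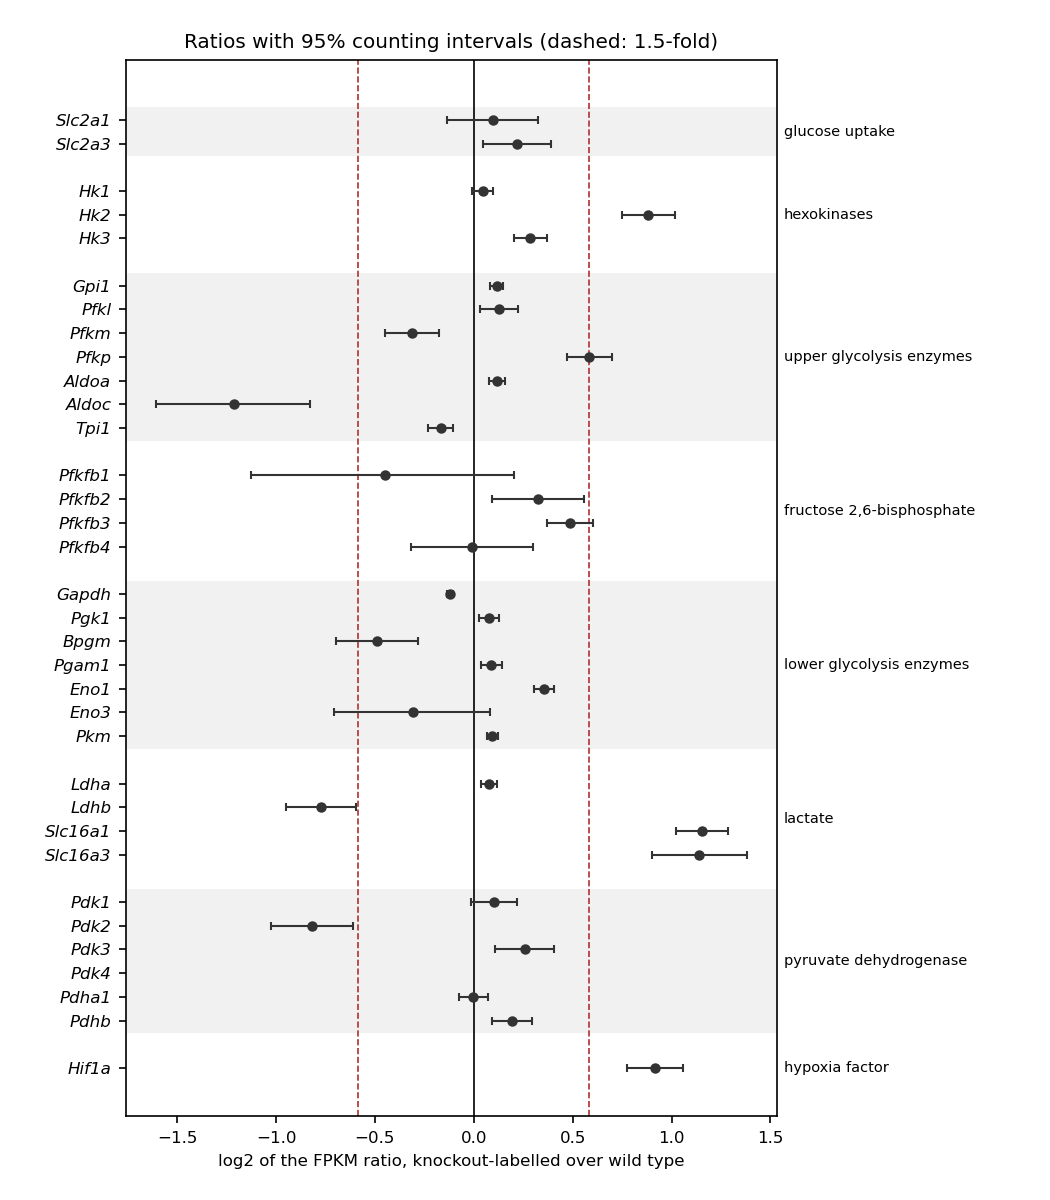
Log2 of the FPKM ratio, knockout-labelled over wild type, for the 33 members that reached 1 FPKM, in pathway order, with 95% counting intervals (bars) and 1.5-fold marked by dashed lines. Whole intervals lie beyond 1.5-fold on the right for Slc16a1, Slc16a3, Hif1a and Hk2 and on the left for Aldoc, Ldhb and Pdk2.

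The lactate carriers had the largest upward differences among the members. Slc16a1, which encodes the lactate and proton carrier MCT1, was listed at 10.3 and 22.8 FPKM, a ratio of 2.22 (2.03 to 2.44). Slc16a3, which encodes MCT4, the carrier that exports lactate from strongly glycolytic cells, stood at 5.65 and 12.4 FPKM, a ratio of 2.20 (1.86 to 2.61). The carriers kept the same proportion to each other, with Slc16a1 at 64.5% and 64.7% of their sum. Bsg, the chaperone that brings both carriers to the cell surface, was listed at 211 and 219.7 FPKM, a ratio of 1.04, and was named after its values were seen.

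The enzyme subunits on the same step behaved differently from each other. Ldha, whose subunit favours the reduction of pyruvate, was listed at 369.5 and 389.7 FPKM, a ratio of 1.05 (1.02 to 1.09). Ldhb, whose subunit favours the oxidation of lactate, stood at 37.7 and 22.1 FPKM, a ratio of 0.586 (0.517 to 0.662). Ldhb thus had 1.71 times the level in the wild type library, and the ratio of Ldha to Ldhb was 9.79 and 17.6. The sum of both subunits was nearly equal, at 407 and 412 FPKM.

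The promoters of these 4 lactate genes are shown because the carriers and the enzyme subunits of one step differed unequally between the libraries, and because HIF-1, whose alpha subunit gene was itself among the higher members, binds the core motif ACGTG or GCGTG. Each window holds 250 bases before and 50 bases after a transcription start in RefSeq (build GRCm38.p6, whereas the submitters' processing notes name mm9), 5′ to 3′ on the gene's strand. Capitals mark the motif on either strand, so also CACGT and, likewise, CACGC, and overlapping matches count as 1. A palindromic CACGTG, which MYC also binds, is 1 such overlap. The windows lie at chr3:104638414-104638713 (plus strand) for Slc16a1, chr11:120948817-120949116 (plus strand) for Slc16a3, chr7:46845554-46845853 (plus strand) for Ldha, where the more upstream of 2 starts was taken, and chr6:142507908-142508207 (minus strand) for Ldhb.
Slc16a1: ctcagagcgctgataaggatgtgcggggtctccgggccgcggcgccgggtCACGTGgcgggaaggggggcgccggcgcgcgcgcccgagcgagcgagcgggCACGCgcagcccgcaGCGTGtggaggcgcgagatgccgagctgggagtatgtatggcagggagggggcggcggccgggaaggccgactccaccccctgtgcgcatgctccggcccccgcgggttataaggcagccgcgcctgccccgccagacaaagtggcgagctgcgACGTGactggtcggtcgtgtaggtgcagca
Slc16a3: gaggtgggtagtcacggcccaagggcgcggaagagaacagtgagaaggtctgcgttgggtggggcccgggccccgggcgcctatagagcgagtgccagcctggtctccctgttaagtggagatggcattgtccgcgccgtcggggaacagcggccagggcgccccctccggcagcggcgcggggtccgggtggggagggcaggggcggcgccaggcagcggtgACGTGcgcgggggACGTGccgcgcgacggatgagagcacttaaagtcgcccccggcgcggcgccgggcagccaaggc
Ldha: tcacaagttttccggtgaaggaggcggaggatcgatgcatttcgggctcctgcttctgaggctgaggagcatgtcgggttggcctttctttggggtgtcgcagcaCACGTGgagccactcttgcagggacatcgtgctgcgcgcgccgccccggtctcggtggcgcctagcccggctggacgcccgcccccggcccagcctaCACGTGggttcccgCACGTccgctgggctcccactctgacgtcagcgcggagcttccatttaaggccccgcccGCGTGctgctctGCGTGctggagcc
Ldhb: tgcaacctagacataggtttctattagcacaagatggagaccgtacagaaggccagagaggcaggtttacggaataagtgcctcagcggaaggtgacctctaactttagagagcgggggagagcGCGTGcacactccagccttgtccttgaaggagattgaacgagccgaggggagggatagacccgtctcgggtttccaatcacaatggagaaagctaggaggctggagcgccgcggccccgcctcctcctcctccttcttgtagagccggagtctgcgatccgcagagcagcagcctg

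Slc16a1 held 4 such matches, Slc16a3 held 2, Ldha held 5 and Ldhb held 1, while the second Ldha window, at chr7:46846832-46847131 and not printed, held 2. Over all 32851 promoter windows of this length, 43.8% held at least 1 match, 17.3% at least 2, 2.44% at least 4 and 0.767% at least 5. These windows include those of genes below 1 FPKM, and their median was 0 matches. The median was 1 in windows whose genes reached a mean of 1 FPKM, for which the shares with more matches were not counted. The motif contains CG, and the GC content of the windows was 73.7% for Slc16a1, 73.3% for Slc16a3, 67.3% for Ldha and 57.3% for Ldhb. Of the 52 windows of members, 40 held a match (76.9%), beside 61.7% of the 12044 windows whose genes reached a mean of 1 FPKM. Members of similar level in both libraries held matches as well, such as Pgam1 with 3 and Pdha1 with 4. Of the other members past 1.5-fold, the higher genes Hk2 and Hif1a each held 2. The lower gene Aldoc held 3 and 1 in its windows, and the lower gene Pdk2 held 1 and 0. A match describes the letters of the window and no binding was measured. The part of HIF-1 in the differences of the lactate genes was not tested.

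**Figure D3:**
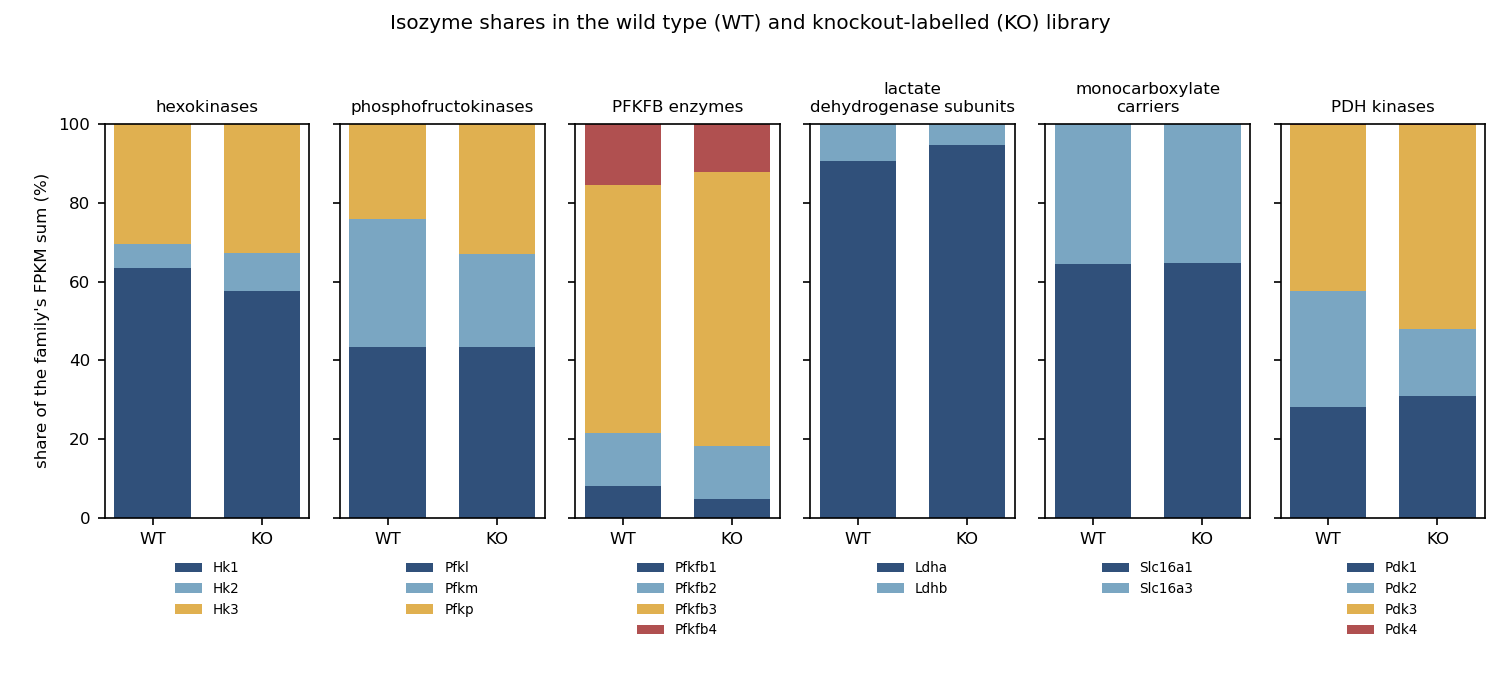
Share of each isozyme in the summed FPKM of its family (vertical axis, percent) in the wild type (WT) and the knockout-labelled (KO) library, 1 library each. Pdk2 takes 29.5% (WT) and 17.2% (KO) of pyruvate dehydrogenase kinase FPKM, Ldhb 9.27% and 5.37% of the lactate dehydrogenase sum, and the lactate carriers keep their proportion.

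At the mitochondrial entry, the dehydrogenase genes were similar and 1 of its kinases was lower. Pdha1, the catalytic E1 alpha subunit gene, was listed at 71.0 and 70.9 FPKM, a ratio of 0.999 (0.949 to 1.05), and Pdhb, the E1 beta gene, at 69.0 and 78.9 FPKM. Exons of Pdha1 overlap by up to 425 bases those of Map3k15 on the opposite strand, which stood at 10.5 and 12.6 FPKM. Pdk2, a broadly expressed kinase of the complex, stood at 16.2 and 9.20 FPKM, a ratio of 0.568 (0.491 to 0.655). Pdk3 stood at 23.2 and 27.8 FPKM, a ratio of 1.19 (1.08 to 1.33), and Pdk1, a known HIF-1 target, at 15.4 and 16.5 FPKM, a ratio of 1.07 (0.991 to 1.16). The kinase sum was nearly equal, at 54.9 and 53.6 FPKM. Pdk3 was the leading kinase in both libraries, and its ratio to Pdk2 was 1.43 and 3.02. Pdk4, a kinase induced by fasting, was listed at 0.06 and 0.08 FPKM, about 3 and 4 reads, for which no difference was detectable at this depth.

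Hif1a, the oxygen-regulated subunit of HIF-1, was listed at 9.09 and 17.2 FPKM, a ratio of 1.89 (1.71 to 2.08). HIF-1 activity is set largely by the stability of this protein, which was not measured. Of 17 regulators of HIF, 14 reached the mean of 1 FPKM. By the 1.5-fold rule 1 of them (7.14%) was higher, against 6.11% of all genes, and 0 were lower, and the median difference was 0.15. The higher gene was Crebbp, a coactivator, at 7.97 and 14.6 FPKM. Arnt, the partner of HIF-1 alpha, stood at 9.90 and 13.2 FPKM, Egln1, the main oxygen sensor, at 8.66 and 11.4 FPKM, and Vhl, which marks the protein for degradation, at 5.60 and 5.38 FPKM. These 3 were named after their values were seen. Rbx1 and Elob, parts of the ligase that holds the VHL protein, stood at 46.2 and 32.1 FPKM and at 146.5 and 105 FPKM, with ratios of 0.695 (0.632 to 0.763) and 0.716 (0.650 to 0.789). Elob has a short transcript of 508 bases, and short genes were lower in general, as described below. Centred on genes of similar length, the difference of Elob went from −0.48 to −0.10 and that of Rbx1 from −0.51 to −0.36.

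HIF targets outside glycolysis went both ways. Among the 23 that reached 1 FPKM, 4 (17.4%) passed the 1.5-fold rule upward, against 6.11% of all genes. Another 2 (8.70%) passed it downward, against 6.13% of all genes, and the median difference was −0.02. The higher genes were Ero1a, an oxidase of the endoplasmic reticulum (10.3 and 21.7 FPKM), Vegfa, the vascular growth factor (6.62 and 11.3 FPKM), Tfrc, the transferrin receptor (20.6 and 34.7 FPKM), and Bhlhe40, a transcriptional repressor (3.36 and 5.65 FPKM). The lower genes were Car9, a carbonic anhydrase at the cell surface (5.20 and 3.06 FPKM), and Ankrd37 (1.85 and 0.88 FPKM). Bnip3, a mitophagy receptor and common marker of HIF activity, stood at 12.69 and 11.95 FPKM. Bhlhe40, Car9, Ankrd37 and Bnip3 were named after their values were seen.

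Counts in the neighbouring pathways are read against 87.8% of all genes within 1.5-fold, and most were close to that share. Of 35 other genes of glycolysis and glucose entry, 24 passed the filter, of which 2 were higher and 1 lower. The higher ones were Slc16a7, another lactate carrier (2.47 and 4.34 FPKM), and Pklr, the pyruvate kinase of liver and red cells (3.49 and 5.95 FPKM), both named after their values were seen. The lower one was Fbp1, which runs the phosphofructokinase step backwards (9.79 and 6.05 FPKM). Txnip, which restrains glucose uptake, was listed at 120 and 86.0 FPKM, a ratio of 0.718 (0.687 to 0.750), within 1.5-fold.

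In the pentose phosphate branch, 1 of 11 genes was higher and 0 lower, with a median of 0.19. That gene was Pgd, which yields NADPH, at 91.4 and 139 FPKM, a ratio of 1.52 (1.45 to 1.59). Its neighbour G6pdx, the entry enzyme, stood at 47.4 and 60.4 FPKM and was named after its values were seen. Of 11 other genes of pyruvate entry, Pdpr, a regulator of pyruvate dehydrogenase phosphatase, was the single higher one (3.30 and 5.60 FPKM, named after its values were seen), and Dld, the shared E3 subunit, stood at 38.9 and 54.1 FPKM. All 16 glycogen genes and all 17 citric acid cycle genes that reached 1 FPKM lay within 1.5-fold, against 87.8% of all genes, with medians of 0.14 and −0.04. Of 23 regulators of glycolysis, Pkm included, 0 were lower, and the higher ones included Foxk2, a forkhead factor that promotes glycolysis (7.35 and 14.9 FPKM), and Cdk6, a cell cycle kinase (35.5 and 57.8 FPKM). Myc stood at 169 and 175 FPKM and was likewise named after its values were seen.

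The difference between the libraries followed transcript length over all genes, and the higher members had mostly long transcripts. Outside the members, 10.3% of 3089 genes of 4000 bases or more were at least 1.5-fold higher and 1.13% lower, against 3.74% and 8.90% of 2809 genes between 1000 and 2000 bases. Of the 4 higher members, Hk2, Hif1a and Slc16a1 exceeded 4000 bases, at 5524, about 4737 and 4430 bases, while Slc16a3 had about 2490 bases. Centred on the median of the 200 nearest other genes in length, the differences were 0.97 for Slc16a1, 1.03 for Slc16a3, 0.70 for Hif1a and 0.63 for Hk2. All 4 thus still exceeded 1.5-fold, as did 4.99% of all genes after centring. Pfkp went from 0.56 to 0.44. Among the lower members, Aldoc stood at −0.96 and Pdk2 at −0.76, while Ldhb, with about 1307 bases, went from −0.74 to −0.58 and no longer passed the rule. Of the HIF and neighbouring pathway genes named above as higher, Crebbp (0.51), Cdk6 (0.36), Tfrc (0.577) and Bhlhe40 (0.576) no longer passed it after centring. Ero1a, Foxk2, Vegfa, Pgd, Slc16a7, Pklr and Pdpr still did. Those named as lower, Fbp1 (−0.49), Car9 (−0.50) and Ankrd37 (−0.34), no longer passed it.

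**Figure D4:**
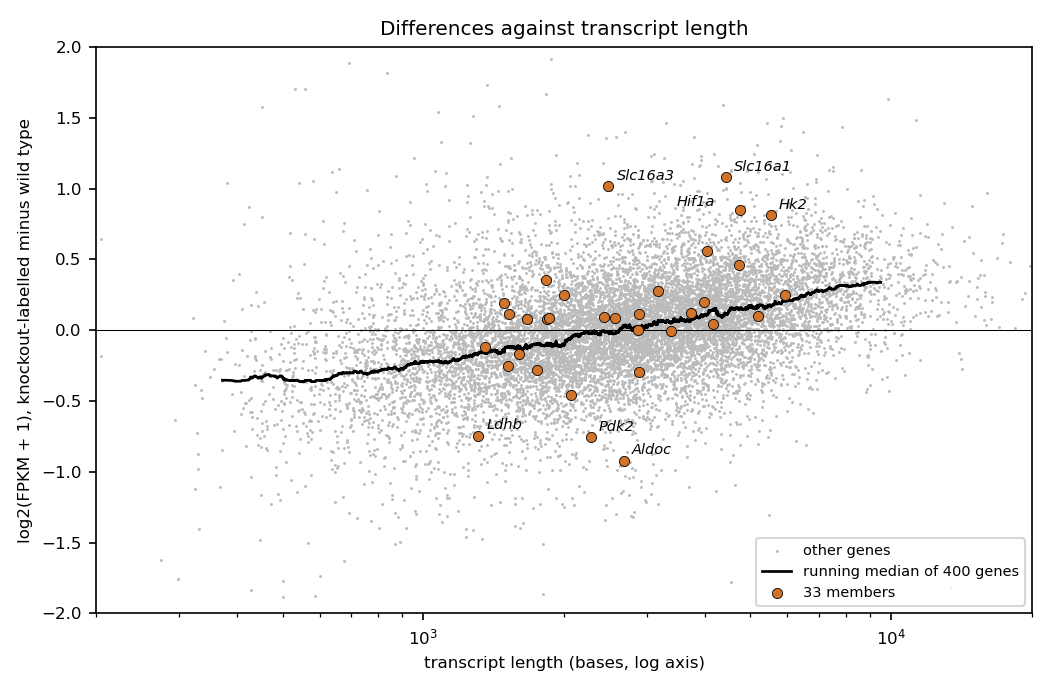
Difference in log2(FPKM + 1), knockout-labelled minus wild type (vertical axis), against transcript length in bases (log axis) for the 33 members (large points) and 11952 other genes past the filter (small points, 195 of them outside the plotted range), with a running median of 400 genes (line). The line climbs with length, and Slc16a1, Slc16a3, Hif1a and Hk2 lie above it while Aldoc, Pdk2 and Ldhb lie below it.

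Markers of other cells differed between the same libraries. Counts in this paragraph are read against 6.11% of all genes higher and 6.13% lower by the 1.5-fold rule. Of 20 neutrophil markers, 13 passed the 1.5-fold rule upward and 0 downward, their summed level was 8867 and 12422 FPKM, and none was at 0. Of 15 monocyte and macrophage markers, 5 were higher and 0 lower (861 and 1002 FPKM in sum). Of 14 B cell markers past the filter, 12 were lower (172 and 77.4 FPKM in sum over all 15), as were 9 of 12 dendritic cell markers (587 and 354 FPKM) and 7 of 15 erythroid markers (1698 and 618 FPKM, a gap carried by the globin genes), of which another 2 were higher. T and NK cell markers were lower in 4 of 11 and endothelial and stromal markers in 2 of 4, with 0 higher in both lists. Of 15 genes listed as markers of haematopoietic stem cells, 1 was higher (6.67%) and 4 lower (26.7%), with sums of 758 and 533 FPKM. The highest levels in that list were those of Cd34 (248 and 177 FPKM), Flt3 (155 and 82.5 FPKM) and Cd48 (136 and 114 FPKM). The gate excluded CD48 protein, and Flt3, also listed as a dendritic cell marker, was among the 4 lower genes. None of the cell markers above was at 0 in either library. The part of these cells in the differences of Hk2, Hif1a, Ldhb and the lactate carriers was not tested. Ribosomal protein genes were lower in 31 of 82, with 0 higher, and took 31.5% and 24.5% of all FPKM. Their median length was 709 bases, and 24.2% of the 1212 genes under 1000 bases outside the members were lower. Centred on genes of similar length, their median difference went from −0.53 to −0.25. Leaving ribosomal protein genes out of the scaling to equal sums gave 5 higher and 3 lower members, against 6 and 1 with them.

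Sex-linked transcripts also differed. Xist was listed at 5.38 and 44.2 FPKM, and the Y-linked gene Eif2s3y at 44.6 and 11.5 FPKM. The members on the X chromosome had ratios of 1.05 for Pgk1, 0.999 for Pdha1, 1.19 for Pdk3 and 0.732 for Pfkfb1, and none passed the 1.5-fold rule. The part of sex in any difference was not tested.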

How the data were processed

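RNA-seq libraries from 1 wild type and 1 Ccp3-/- sample were compared. The deposited files hold an FPKM value, a length and RefSeq transcripts per gene, per the file headers. The submitters' processing notes name HISAT, HISAT2, RSEM and mm9, without roles, versions or settings. Lengths (unit other) are deposited by the authors and vary with the mix of transcripts. Symbols came from RefSeq GRCm38.p6 (17169 of 17216 identifiers matched).

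Differences were log2(FPKM + 1), knockout-labelled minus wild type, for genes whose mean reached 1 FPKM; ratios are of FPKM without the pseudocount, and the log2 scale understates low genes. A gene missing from a file was taken as 0. FPKM sums were 577420 and 506124. Depth was reconstructed from FPKM times length, less an offset of 37 bases, of single-transcript genes of 150 to 1000 bases with fewer than 8 reads. Steps of 65.4 and 70.3 brought 84.7% of 366 and 88.2% of 355 values within 0.15 of a whole read, and were chosen for that. Intervals are Clopper-Pearson intervals of these estimated reads, rounded, and are approximate. The steps, intervals and size rule were tested on simulated data. The simulated reads followed the same model of offset and step, with no trend with length and no spread between animals. The simulation therefore checks the calculation and cannot show that the model holds for these libraries.

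Every member was reported. A result among the regulators of glycolysis is not reported here. Of each other pathway list, up to 4 genes were eligible for naming, those with the largest differences among genes that reached a mean of 5 FPKM. The other gene lists, like the members, were chosen with earlier results known. Motifs were searched in RefSeq promoter windows. Tools were scipy 1.17.1, pandas 2.3.3, matplotlib 3.10.9, numpy 2.4.6 and Python 3.11.15.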

Additional observations from a re-analysis of the deposited data

How the results depend on the processing

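Alternatives covered pseudocounts of 0.1 and 5 FPKM, no filter or a mean of at least 5 FPKM, 4 scalings, length centring, and, chosen after seeing the data, an interval that also excludes 1. Slc16a1, Slc16a3, Hif1a and Hk2 passed 1.5-fold under each of these alternatives, and the count of higher members ranged from 4 to 6, with Pfkp and Pfkfb3 added under equal FPKM sums. The count of lower members, 3 as reported, was 1 (Ldhb) with a pseudocount of 5 FPKM and 1 (Aldoc) with equal FPKM sums. The members' median was 0.28 with equal sums, beside 0.18 over all genes, and the gap between these medians ranged from 0.08 to 0.11 over the alternatives. Over all genes, 732 were higher and 735 lower as reported, 282 and 322 with a pseudocount of 5 FPKM, and 1490 and 401 with equal sums. As shares of estimated reads in place of FPKM, the differences in percentage points were 5.14 for Hk2, −1.23 for Aldoc, −3.13 for Ldhb, −9.65 for Pdk2 and 5.68 for Pdk3, against 3.75, −0.70, −3.90, −12.3 and 9.47 as reported, because reads also scale with transcript length. The members examined singly were Slc16a1, Slc16a3, Hif1a, Hk2, Pfkp, Pfkfb3, Eno1, Aldoc, Pdk2, Ldhb, Bpgm and Pfkm, and none of them reversed direction. Most of these had large differences, and the remaining members were not examined in this way. Small differences could change sign: with length centring Gapdh went from −0.12 to 0.04, Hk1 from 0.04 to −0.13 and Pdk1 from 0.10 to −0.08. No paired analysis was possible because each genotype had 1 library.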
